A study of Mus musculus with 4 samples.

Results

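Tuft cells are rare chemosensory cells of the intestinal epithelium, and 10 genes known from them were followed here through 4 RNA-seq libraries of mouse jejunal epithelium. The genes were chosen by symbol, as Pou2f3, Gfi1b, Dclk1, Avil, Trpm5, Rgs13, Alox5, Ltc4s, Hpgds and Il25. All 10 were found among the 22456 symbols of the deposited expression table, and 9 of them reached the mean of 1 FPKM (a read abundance corrected for transcript length and sequencing depth) required for testing. Il25 did not. In 9 of the 10 genes, Ltc4s being the exception, the control libraries stood 3.41-fold to 5.84-fold apart and both libraries labelled double knockout lay between them. Ltc4s, the synthase of cysteinyl leukotrienes, was level in the controls and 2.90-fold lower in the libraries labelled double knockout.

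There were 2 libraries labelled Hnf4a;Cdx2 double knockout and 2 from controls that carried no Cre. All mice were adults of a 129xC57/Bl6xSvJ mixed background, and all of them, controls included, were given 1 mg of tamoxifen on each of 5 days, which in mice with Cre recombines the conditional alleles. The labels name the 2 libraries of a genotype as biological replicates. They do not give the Cre driver, so the cells in which the alleles recombined are not stated in the sources used here. The epithelium was released from the jejunum with EDTA and was not sorted, so that tuft cells were measured within bulk epithelium. Fewer cells of a type and less RNA per cell cannot be told apart in such samples.

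Tuft cells are specified by the POU factor Pou2f3 and read the gut contents with a signalling cascade also used by taste cells. They are known as the epithelial source of the cytokine interleukin-25, which acts on innate lymphoid cells of the lamina propria. Interleukin-13 from those cells in turn raises tuft and goblet cell numbers, a loop studied in parasite infection of the small intestine. Tuft cells also carry enzymes that turn arachidonic acid into leukotrienes and prostaglandins.

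The libraries were alike in the number of symbols with at least 1 FPKM, 10635 to 10749, and no read counts were in the files used here. Hnf4a, one of the targeted genes, had 31.6 and 48.2 FPKM in the libraries labelled double knockout, against 156 and 202 FPKM in controls (log2 fold change -2.16 ± 0.27, SE, n = 2 each, adjusted p = 0.0147 by limma). Cdx2, the other, went against its label, with 159.8 and 161 FPKM in the libraries labelled double knockout, against 70.9 and 65.2 FPKM in controls (1.23 ± 0.15, adjusted p = 0.0150 by limma). A level over the whole gene does not show whether a deleted exon is missing, and the deleted part is not given in the labels. All tests are of log2(FPKM + 1), so fold changes of low genes are understated, and 9.57% of the 10883 genes tested were called at an adjusted p under 0.05 (410 higher, 631 lower). All 4 libraries held epithelial markers in plenty, with summed levels of 6 epithelial genes between 5441 and 7733 FPKM. Limma called 1 of the 6 higher, Krt19, and 2 lower, Epcam and Vil1, which the sum does not show. Krt19 had 2288 and 2726 FPKM in the libraries labelled double knockout, against 696 and 741 FPKM in controls. For Epcam the values were 526 and 531 FPKM against 1135 and 1281 FPKM, and for Vil1 508 and 487 FPKM against 970 and 1024 FPKM.

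Promoter windows from RefSeq (build GRCm38.p6) were at hand for 8 of the 10 genes, 9 windows in all, each taken as the 250 bases before a start. They were searched on both strands for the octamer ATGCAAAT, which POU factors such as Pou2f3 bind, for the HNF4-type motif CAAAGTCCA and for the CDX-type motif TTTATNG. The octamer was in 1 of the 9 windows, that of Hpgds, and in 1.6% of 32851 windows of the same length. The HNF4-type motif was in 0 of the 9 and in 0.384% of all windows, and the CDX-type motif was in 1 of the 9, that of Alox5, and in 9.81% of all windows. The sequences of both matches are given with the matched letters in capitals, and the 166 bases of the Ltc4s window that lie upstream of every annotated start of the gene are given because Ltc4s alone was called.
Hpgds, chr6:65144886-65144915, minus strand: ctttactctttATGCAAATacgttggacta
Alox5, chr6:116461381-116461409, minus strand: caggcaagaagCCATAAAgatggaagaaa
Ltc4s, chr11:50238617-50238782, minus strand: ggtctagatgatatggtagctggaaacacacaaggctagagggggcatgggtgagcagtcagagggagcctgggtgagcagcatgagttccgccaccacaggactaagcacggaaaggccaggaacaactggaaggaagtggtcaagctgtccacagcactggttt
The capitals in Hpgds are the octamer, 166 bases before the start used by RefSeq. They end 11 bases inside the outermost annotated transcript of the gene. The capitals in Alox5 are the CDX-type motif read on the opposite strand, 213 bases before the start. None of the 3 motifs was found in the Ltc4s stretch, which says only that these letters are not in these 166 bases.

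The first pair of members are transcription factors. Pou2f3 (chromosome 9, 42932022 to 43013838, mm9), on which tuft cell formation depends in mice, had 5.07 and 4.89 FPKM in the libraries labelled double knockout, against 1.50 in control 1 and 7.79 in control 2. The double knockout values were close to each other and the control values bracketed them. The log2 fold change was 0.35 ± 0.60 (SE, n = 2 each), with an adjusted p of 0.742 by limma. Gfi1b (chromosome 2, 28464970 to 28477502, mm9), a zinc finger repressor also known from red cell and platelet precursors, had 0.943 and 1.82 FPKM in the libraries labelled double knockout, against 0.615 in control 1 and 2.098 in control 2. Its order of libraries was that of Pou2f3 at the outer ends, with control 1 lowest and control 2 highest. The log2 fold change of Gfi1b was 0.06 ± 0.39 (SE, n = 2 each, adjusted p = 0.935 by limma), and its sign turned under quantile normalization. All 6 markers of megakaryocytes and erythroid cells stayed under 1 FPKM in all 4 libraries, summing to 0.932 and 1.04 FPKM in the libraries labelled double knockout and to 1.58 and 1.01 FPKM in controls.

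The genes tied to cell shape showed the same order. Dclk1 (chromosome 3, 55046448 to 55342990, mm9), a kinase with microtubule-binding domains that is the classical tuft cell stain, had 13.9 and 9.42 FPKM in the libraries labelled double knockout, against 3.53 in control 1 and 14.1 in control 2. Avil (chromosome 10, 126437765 to 126458050, mm9), an actin-binding protein of the villin family, had 24.2 and 22.3 FPKM in the libraries labelled double knockout, against 6.17 in control 1 and 27.2 in control 2. For both, the libraries labelled double knockout lay nearer to control 2, and control 1 stood alone at the low end. The log2 fold changes were 0.59 ± 0.59 for Dclk1 (adjusted p = 0.561) and 0.77 ± 0.64 for Avil (SE, n = 2 each, adjusted p = 0.485 by limma), neither past the threshold.

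Trpm5 and Rgs13 belong to the chemosensory signalling of tuft cells. Trpm5 (chromosome 7, 150257434 to 150280547, mm9), the cation channel that depolarises taste and tuft cells, had 15.8 and 13.0 FPKM in the libraries labelled double knockout, against 6.25 in control 1 and 25.3 in control 2. Rgs13 (chromosome 1, 145985797 to 146024502, mm9), which speeds the shutting off of G proteins, was on average the most abundant of the 10, with 33.8 and 28.8 FPKM in the libraries labelled double knockout, against 14.3 in control 1 and 64.0 in control 2. Here the libraries labelled double knockout sat in the middle of the control range. The means of Rgs13 were 31.3 ± 3.49 FPKM in the libraries labelled double knockout and 39.1 ± 35.1 FPKM in controls (SD, n = 2 each), and its log2 fold change was 0.03 ± 0.68 (SE, adjusted p = 0.984 by limma). Trpm5 had a log2 fold change of 0.15 ± 0.61 (SE, n = 2 each, adjusted p = 0.899 by limma).

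**Figure D1:**
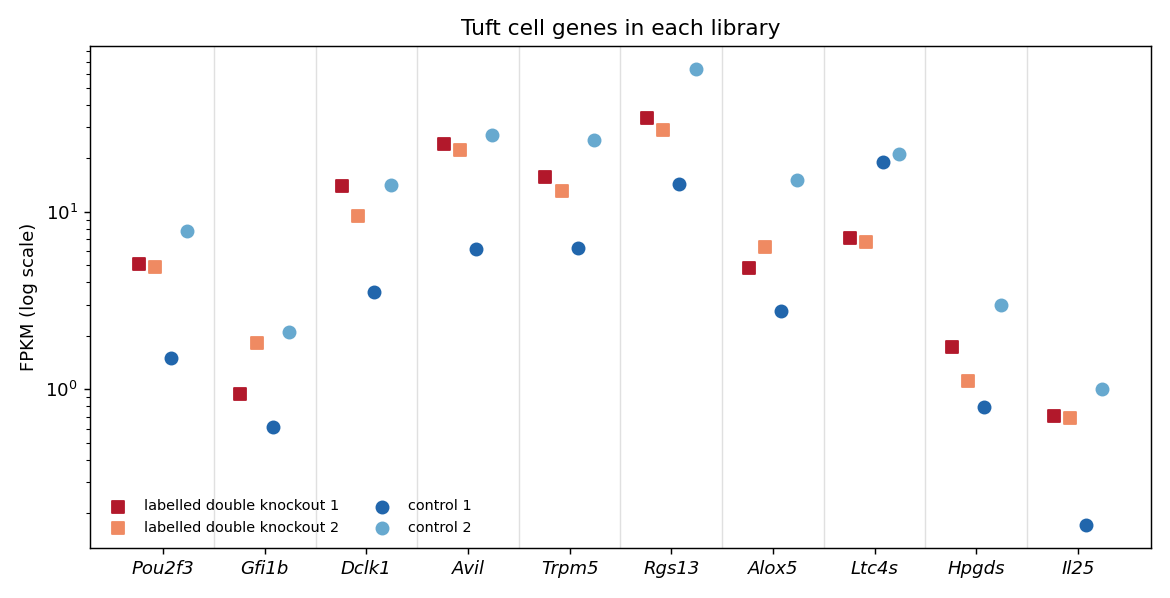
Level of each of the 10 tuft cell genes (FPKM, log axis) in each of the 4 libraries, 1 point per library, with the libraries labelled double knockout left of the controls. In 9 genes control 1 is lowest and control 2 highest, as for Rgs13 with 14.3 and 64.0 FPKM, while in Ltc4s the libraries labelled double knockout, at 7.13 and 6.73 FPKM, lie below controls at 19.1 and 21.1 FPKM.

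The members that make lipid mediators did not all share this order. Alox5 (chromosome 6, 116360089 to 116411196, mm9), the lipoxygenase that opens the leukotriene pathway, had 4.82 and 6.31 FPKM in the libraries labelled double knockout, against 2.75 in control 1 and 15.1 in control 2. Hpgds (chromosome 6, 65067287 to 65094724, mm9), the prostaglandin D synthase whose promoter match is printed above, had 1.73 and 1.11 FPKM in the libraries labelled double knockout, against 0.793 in control 1 and 2.98 in control 2. Both genes followed the order of the other members. Their log2 fold changes were -0.25 ± 0.69 for Alox5 (adjusted p = 0.847) and -0.15 ± 0.43 for Hpgds (SE, n = 2 each, adjusted p = 0.848 by limma).

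Ltc4s (chromosome 11, 50049974 to 50051973, mm9), which joins glutathione to the product of Alox5 to form the first cysteinyl leukotriene, had 7.13 and 6.73 FPKM in the libraries labelled double knockout, against 19.1 in control 1 and 21.1 in control 2. The groups did not overlap, and the controls differed by only 1.10-fold. The means were 6.93 ± 0.280 FPKM in the libraries labelled double knockout and 20.1 ± 1.41 FPKM in controls (SD, n = 2 each). Ltc4s fell by 1.41 ± 0.15 on the log2 scale (SE, n = 2 each, adjusted p = 0.0109 by limma, lower in 2 of 2 libraries labelled double knockout). The adjusted p was 0.0556 without double knockout 2, 0.0586 without control 1 and 0.0658 without control 2, so the call needed each of these libraries, while the fold change stayed between -1.48 and -1.34 on the log2 scale when any single library was left out.

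Ltc4s and the gene before it in the pathway did not keep a fixed ratio. The ratio of Ltc4s to Alox5 was 1.48 and 1.07 in the libraries labelled double knockout, against 6.94 in control 1 and 1.40 in control 2. The ratio of Ltc4s to Pou2f3 was 1.41 and 1.38 in the libraries labelled double knockout, against 12.7 in control 1 and 2.71 in control 2. Both ratios were highest in control 1, the library with the lowest Alox5 and Pou2f3. In the libraries labelled double knockout, the ratio to Pou2f3 was below that of both controls and the ratio to Alox5 lay on either side of that of control 2. Since FPKM is scaled to transcript length, these are ratios of levels between genes on 1 scale, but the level of Ltc4s itself is uncertain, since in the per-library files it lay above its own interval in 4 of 4 libraries.

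Il25 (chromosome 14, 55551532 to 55554673, mm9), the cytokine that tuft cells release, was the lowest of the 10, with 0.704 and 0.690 FPKM in the libraries labelled double knockout, against 0.172 in control 1 and 1.00 in control 2. It had the widest control ratio of the 10 genes, 5.84-fold, at the lowest level. It missed the minimum level for testing in this comparison. With no minimum its adjusted p was 0.801 by limma.

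Read against the whole table, the 9 tested members combined a large spread between controls with a small difference between genotypes. Of the 9, limma called 1 lower, where 5.8% of all genes tested were, and 0 higher (0 at an unadjusted p under 0.05), where 3.77% of all genes were. The share of all genes under the unadjusted cut was not counted, here or for the lists below. The count of members whose genotypes did not overlap was 1 of 9, against 60.7% of all genes tested. The difference between the controls exceeded the difference between the genotype means in 8 of 9 members, against 39.3% of all genes. Both double knockout values lay between the controls in 8 of 9 members, or 9 of 10 with Il25, against 11.2% of all genes. Control 2 was higher than control 1 by at least 1 log2 unit in 7 of 9 members, a step that 2.28% of all genes took and that 1.12% took in the other direction.

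The medians show the same contrast. On the log2(FPKM + 1) scale the median difference of control 2 minus control 1 was 1.81 over the 9 members and -0.01 over all genes tested. The libraries labelled double knockout were close to each other, with a median absolute difference of 0.26 over the members and 0.19 over all genes. The median log2 fold change between genotypes was 0.06 over the members and 0.02 over all genes. Ranked by control 2 minus control 1 among the 10883 genes, the 8 tested members other than Ltc4s stood between place 45 (Alox5) and place 287 (Gfi1b), and Ltc4s stood at place 3614.

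**Figure D2:**
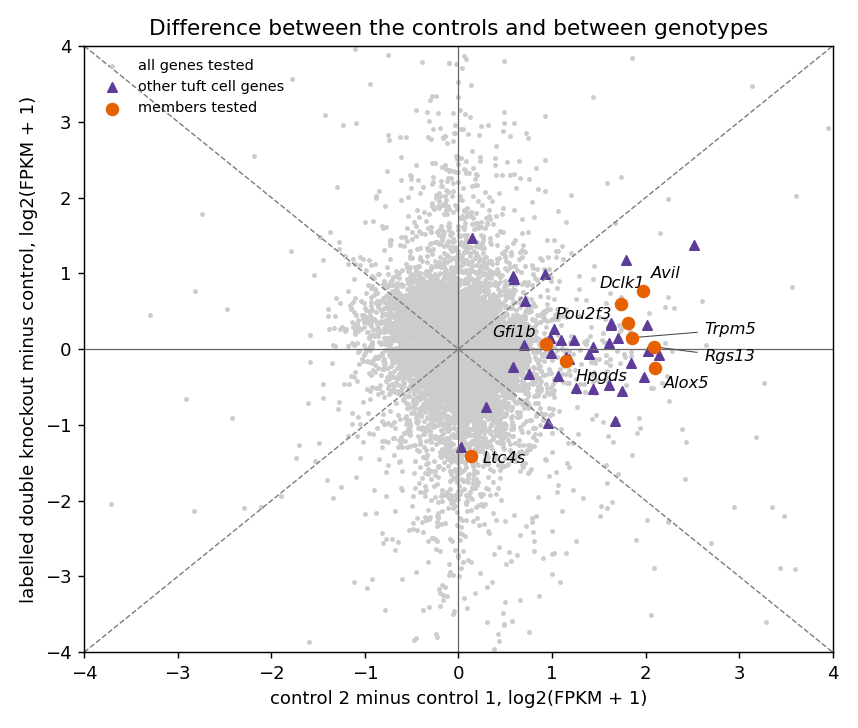
Difference between the control libraries (control 2 minus control 1) against the difference between genotype means (double knockout minus control), both on the log2(FPKM + 1) scale, 1 point per gene tested, with the tuft cell genes named, other tuft cell genes as triangles, dashed lines where both differences are equally large, and 70 of the 10883 genes beyond the axes left out. The members other than Ltc4s lie farther from 0 on the control axis than on the genotype axis, and Ltc4s lies the other way, at a control difference of 0.14 and a genotype difference of -1.41.

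The 9 genes without Ltc4s moved together across the libraries. Their summed level was 101 and 88.4 FPKM in the libraries labelled double knockout, against 36.1 in control 1 and 159 in control 2. Relative to control 1, their geometric mean was 2.69-fold and 2.58-fold in the libraries labelled double knockout and 4.44-fold in control 2. The higher library labelled double knockout exceeded the lower by 1.02-fold to 1.93-fold across the 10 genes, with a median of 1.19-fold. Ratios to Pou2f3 were read after the values were seen and were not tested. They were taken for Dclk1, Alox5, Rgs13, Trpm5 and Avil, not for Gfi1b, Hpgds or Il25. All share 1 denominator, and how often such ratios part by genotype over other genes was not counted. The ratio of Dclk1 to Pou2f3 was 2.74 and 1.93 in the libraries labelled double knockout, against 2.35 and 1.81 in controls, so the groups overlapped. The ratio of Alox5 to Pou2f3 was 0.951 and 1.29 in the libraries labelled double knockout, against 1.83 and 1.94 in controls. The ratio of Rgs13 to Pou2f3 was 6.66 and 5.90 in the libraries labelled double knockout, against 9.51 and 8.21 in controls. The ratio of Trpm5 to Pou2f3 was 3.11 and 2.67 in the libraries labelled double knockout, against 4.16 and 3.25 in controls. These 3 genes were thus lower relative to Pou2f3 in both libraries labelled double knockout than in both controls. Avil went the other way, with a ratio of 4.77 and 4.57 in the libraries labelled double knockout, against 4.11 and 3.49 in controls. With 1 control library at each level, the spread between controls has no replicate check.

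In the 8 tested genes other than Ltc4s, both double knockout values lay between the controls, so the choice of control set their direction. Against control 2 alone, with control 1 left out, all 9 tested members had a negative log2 fold change, with a median of -0.73, against 0.02 over all genes. Against control 1 alone, with control 2 left out, 8 of the 9 had a positive one and Ltc4s a negative one, with a median of 1.07, against 0.03 over all genes. Alox5 moved most toward lower levels among the 8, with a log2 fold change of -1.30 against control 2 alone and 0.80 against control 1 alone. Avil moved most toward higher levels, with -0.22 against control 2 alone and 1.76 against control 1 alone. Neither setting called a member by limma, where 1.53% of all genes were called against control 2 alone and 1.44% against control 1 alone, and the lowest adjusted p values of the 9 were 0.0586 for Ltc4s against control 2 alone and 0.0507 for Avil against control 1 alone. Both fits assume that the lone control varies as the pair labelled double knockout does.

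**Figure D3:**
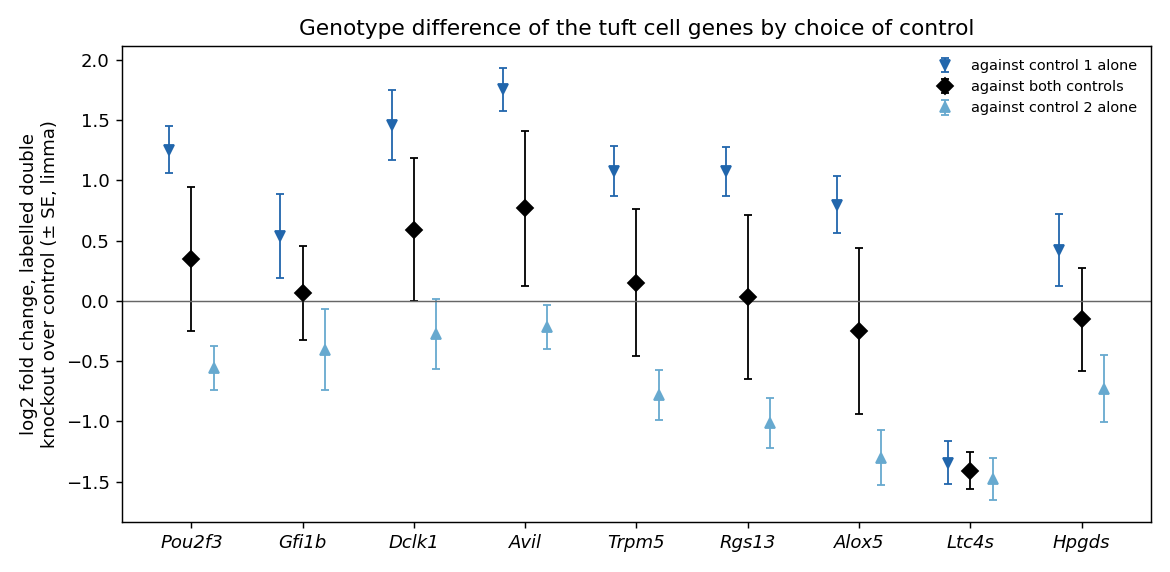
Log2 fold change of each tested tuft cell gene (double knockout over control, log2(FPKM + 1) scale, bars are standard errors from limma) with both controls, against control 1 alone and against control 2 alone. All genes but Ltc4s lie above 0 against control 1 alone and below 0 against control 2 alone, as Pou2f3 does at 1.26 and -0.56, while Ltc4s stays near -1.41 in each. The change of sign follows from double knockout values that lie between the controls.

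The spread between controls was large against counting error in Pou2f3, Hpgds and Alox5, was uncertain in Il25 and was not in Ltc4s. Counting error could not be gauged in the other members. The low values of the table are steps of 1 read, which gave relative depths of 0.652 and 0.498 for the libraries labelled double knockout, against 1 for control 1 and 0.685 for control 2. In 5 of the 10 genes the 4 values fitted whole reads within 0.03 of a read, and the smallest such reads are lower bounds, since a common multiple would fit as well. Pou2f3 corresponded to 156 and 115 reads in the libraries labelled double knockout, against 71 in control 1 and 252 in control 2, and its control ratio of 5.18 had a 95% interval of 3.97 to 6.84. Hpgds, with 50 and 129 reads in controls 1 and 2, had a control ratio of 3.77 (2.70 to 5.33), and Alox5, with 49 and 184 reads, a ratio of 5.48 (3.98 to 7.67). Ltc4s had 18 and 13 reads in the libraries labelled double knockout, against 74 and 56 in controls, and its control ratio of 1.10 had an interval of 0.766 to 1.58, which includes 1. Il25 rested on 8 and 6 reads in the libraries labelled double knockout, against 3 and 12 in controls, so its control ratio had an interval of 1.58 to 32.2. These intervals are exact and cover counting error only.

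The levels estimated by the authors for each library alone had the same order between controls, 2.87-fold to 5.01-fold higher in control 2 than in control 1 for the 9 genes, and 0.943-fold for Ltc4s. In those files the level of Ltc4s lay above the upper bound of its own interval in 4 of 4 libraries. Double knockout 1, for example, had 7.45 FPKM with an interval of 2.87 to 6.52 FPKM, and control 1 had 21.5 FPKM with an interval of 9.11 to 13.7 FPKM. The intervals of the 2 genotypes did not overlap. The other 9 genes lay inside their intervals in every library. In the authors' deposited table of the genotype comparison, 1 of 9 tested members was called, Ltc4s, with 7.65 FPKM for the double knockout, 22.6 FPKM for the control and a q-value of 0.0281. The authors' deposited table gave q-values of 0.268 to 0.996 to the other 8. The share of all genes called in that deposited table was not counted.

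A longer list of 41 other genes known from tuft cells showed a similar spread between controls, less evenly than the members. Of its entries 40 were found and 37 were tested, and limma called 0 higher and 1 lower (4 higher and 3 lower at an unadjusted p under 0.05). Over all genes tested, limma called 3.77% higher and 5.8% lower. For the unadjusted cut and for the authors' deposited table no such share was counted. The authors' deposited table tested 38 of the list. It called 1 higher, Pla2g4a (11.4 FPKM for the double knockout, 5.69 FPKM for the control, q-value 0.0399). It called 2 lower, Plcg2 (6.03 FPKM for the double knockout, 13.9 FPKM for the control, q-value 0.00718) and Rgs2. All 37 genes tested by limma were higher in control 2 than in control 1, by at least 1 log2 unit in 24. In 30 the difference between controls exceeded that between genotypes. Both double knockout values lay between the controls in 23 of the 37, against 11.2% of all genes. The median log2 fold change was -0.02 and the median difference between controls 1.23. The groups did not overlap in 8 of 37, against 60.7% of all genes tested, 5 of them higher and 3 lower in the libraries labelled double knockout. This list includes genes that other cells of the epithelium or blood express, such as Krt18 and Ptpn6.

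The genes of that list with the greatest difference between controls were Gng13, Lrmp and Kctd12. Gng13, a G protein subunit of taste transduction, had 20.1 and 14.3 FPKM in the libraries labelled double knockout, against 1.90 in control 1 and 15.6 in control 2. Lrmp, a membrane protein that regulates calcium release, had 14.2 and 15.8 FPKM in the libraries labelled double knockout, against 7.05 in control 1 and 34.5 in control 2. In Kctd12, an auxiliary subunit of GABA-B receptors, the libraries labelled double knockout had 24.4 and 26.6 FPKM, against 12.3 in control 1 and 53.2 in control 2. None of the 3 was called by limma (adjusted p = 0.338 for Gng13, 0.955 for Lrmp and 0.989 for Kctd12).

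Rgs2, another regulator of G protein signalling, was the called gene of that list. It had 5.50 and 6.77 FPKM in the libraries labelled double knockout, against 16.2 in control 1 and 16.5 in control 2. Like Ltc4s, it was level between controls and below both of them in the libraries labelled double knockout. Rgs2 fell by 1.29 on the log2 scale (SE 0.17, n = 2 each, adjusted p = 0.0160 by limma), and its adjusted p was between 0.0505 and 0.0878 when any single library was left out. Rgs2 is also known from many other cell types. Gnb3, a G protein subunit named here after its values were seen, had 3.67 and 1.02 FPKM in the libraries labelled double knockout, against 0.0598 in control 1 and 0.175 in control 2, with an adjusted p of 0.107 by limma.

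Among 14 other genes of eicosanoid synthesis, breakdown and reception, 8 were tested and limma called 0 higher and 1 lower (1 higher and 1 lower at an unadjusted p under 0.05). The shares called by limma over all genes tested were 3.77% higher and 5.8% lower. The authors' deposited table called 2 of the list higher, Ptges and Ptgdr, and 0 lower. Ptges had 4.04 and 0.0572 FPKM in the libraries labelled double knockout, against 0.0997 and 0.104 FPKM in controls. Its high level was thus in double knockout 1 alone (adjusted p = 0.406 by limma). Lta4h, the hydrolase that competes with Ltc4s for the same leukotriene substrate, had 69.7 and 86.5 FPKM in the libraries labelled double knockout, against 141 in control 1 and 147 in control 2. Lta4h fell by 0.88 on the log2 scale (SE 0.18, n = 2 each, adjusted p = 0.0485 by limma), close to the threshold, and the adjusted p was between 0.0489 and 0.173 under the alternatives. Alox5ap, which presents arachidonic acid to Alox5, instead followed Alox5, with 32.8 and 26.9 FPKM in the libraries labelled double knockout, against 11.3 in control 1 and 48.8 in control 2 (adjusted p = 0.796 by limma). Ptges2, a prostaglandin E synthase, had 21.0 and 18.3 FPKM in the libraries labelled double knockout, against 16.0 in control 1 and 23.4 in control 2. Ptgdr, a prostaglandin D receptor, had 1.97 and 4.92 FPKM in the libraries labelled double knockout, against 1.33 in control 1 and 0.720 in control 2. Limma called neither (adjusted p = 0.976 for Ptges2 and 0.157 for Ptgdr by limma).

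Of 11 genes of the interleukin-25 and type 2 circuit outside tuft cells, 7 were tested and 0 were called, by limma, at an unadjusted p under 0.05 or in the authors' deposited table. Over all genes tested, limma called 9.57%. Retnlb, a goblet cell protein induced by interleukin-13, had 91.1 and 30.4 FPKM in the libraries labelled double knockout, against 0.301 in control 1 and 82.4 in control 2. Control 1 was low in Retnlb as it was in tuft cell genes, and the control ratio was 273-fold. Clca3, another goblet cell product of type 2 responses, had 502 and 875 FPKM in the libraries labelled double knockout, against 841 in control 1 and 2547 in control 2. Il33, an alarmin, had 27.6 and 2.35 FPKM in the libraries labelled double knockout, against 13.1 in control 1 and 19.8 in control 2, so that its spread was among the libraries labelled double knockout. None of these passed the threshold (adjusted p = 0.483 for Retnlb, 0.282 for Clca3 and 0.645 for Il33 by limma). Il13 and Il5 were listed at 0 in all 4 libraries, and Il4 was listed at 0 in all but control 2, where it had 0.190 FPKM.

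Markers of other cells moved between the controls as well. Alox5, Ltc4s, Hpgds and Rgs13 are also known from mast cells, and all 12 mast cell markers were higher in control 2 than in control 1. The mast cell markers summed to 21.7 and 16.1 FPKM in the libraries labelled double knockout, against 52.9 in control 1 and 224 in control 2, so that, unlike in tuft cell genes, the libraries labelled double knockout lay below both controls. The protease Mcpt1 had 9.72 and 6.84 FPKM in the libraries labelled double knockout, against 32.0 in control 1 and 139 in control 2 (adjusted p = 0.0678 by limma). Of the 4 mast cell markers tested, all 4 were lower in both libraries labelled double knockout than in both controls. The same held for 3209 of the 10883 genes tested. Limma called 0 of the 4 (3 at an unadjusted p under 0.05). The authors' deposited table tested 6 mast cell markers and called 3 lower, Cpa3 (q-value 0.0241), Mcpt1 and Mcpt2 (q-value 0.000868 for both). The part of mast cells in Ltc4s or the other shared genes was not tested.

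**Figure D4:**
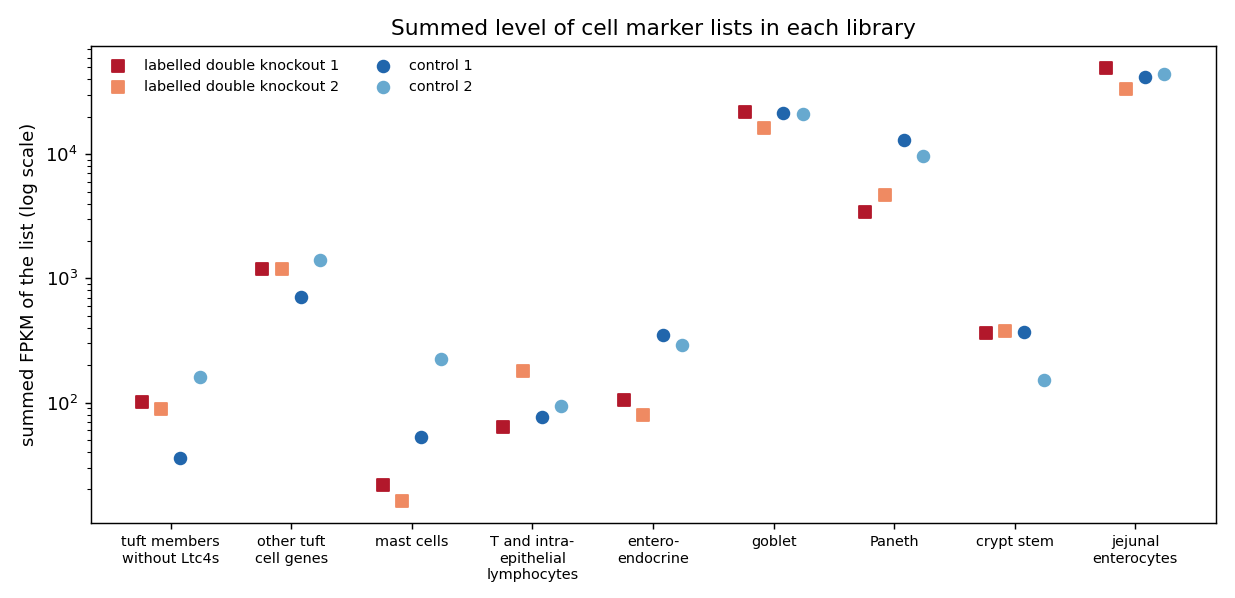
Summed level of each marker list (FPKM, log axis) in each library, 1 point per library, with the libraries labelled double knockout left of the controls. The mast cell list falls below control 1 in both libraries labelled double knockout (21.7 and 16.1 FPKM against 52.9) and reaches 224 FPKM in control 2, while the 9 tuft cell genes without Ltc4s lie above control 1 in all 3 other libraries.

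Other lists of cell markers moved in their own ways. Markers of macrophages, dendritic cells and granulocytes summed to 14.2 and 13.3 FPKM in the libraries labelled double knockout, against 16.2 in control 1 and 51.9 in control 2, with Prg2 at 0 in every library. Limma called 1 of 4 tested higher, Cd14, and 1 lower, Itgam, which the sum does not show. Limma called 3.77% of all genes tested higher and 5.8% lower. The authors' deposited table tested 6 and called Cd14 higher and Itgam and Lyz2 lower. Cd14 had 10.5 and 7.86 FPKM in the libraries labelled double knockout, against 3.34 and 4.27 FPKM in controls. For Lyz2 the values were 1.86 and 2.66 FPKM against 8.60 and 34.8 FPKM. T cell and intraepithelial lymphocyte markers summed to 63.4 and 180 FPKM in the libraries labelled double knockout, against 77.3 and 94.8 FPKM in controls. B and plasma cell markers (1.29 to 4.52 FPKM) and stroma and muscle markers (0.955 to 5.34 FPKM) were low throughout. The authors' deposited table called 1 B and plasma cell marker higher, Igj (q-value 0.0412), which limma did not call (adjusted p = 0.0723). Crypt stem cell markers summed to 364 and 374 FPKM in the libraries labelled double knockout, against 373 in control 1 and 151 in control 2, and all 5 were lower in control 2 than in control 1.

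By the sums of their markers, the secretory lineages differed from tuft cell genes in their order of libraries. Enteroendocrine markers summed to 106 and 79.4 FPKM in the libraries labelled double knockout, against 347 in control 1 and 291 in control 2, and limma called 5 of 7 tested lower. Over all genes tested, limma called 5.8% lower. Paneth cell markers summed to 3413 and 4710 FPKM in the libraries labelled double knockout, against 12935 in control 1 and 9712 in control 2, with 1 of 6 called lower by limma. The authors' deposited table called 1 Paneth cell marker higher, Mmp7, and 2 lower, Ang4 and Mptx2. Goblet cell markers summed to 21937 and 16163 FPKM in the libraries labelled double knockout, against 21284 in control 1 and 20897 in control 2, with 0 of 8 called by limma, at an unadjusted p under 0.05 or in the authors' deposited table. Enterocyte markers summed to 49783 and 33492 FPKM in the libraries labelled double knockout, against 41884 and 44308 FPKM in controls. Limma and the authors' deposited table each called 2 of these 8 lower, Lct and Sis, which the sum does not show. Lct had 2.70 and 0.742 FPKM in the libraries labelled double knockout, against 300 and 283 FPKM in controls. For Sis the values were 57.1 and 25.7 FPKM against 462 and 1554 FPKM. Control 2 was below control 1 in 3 of these 4 sums, enterocytes being the exception. Single markers did not all follow their sum. Control 2 was the higher control in 4 of 8 goblet, 2 of 6 Paneth and 2 of 10 enteroendocrine markers. The Paneth cell marker Ang4 had 44.3 and 565 FPKM in the libraries labelled double knockout, against 894 in control 1 and 3724 in control 2. The labels give no batch, date or litter, so the difference between controls could not be set against one.

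The genes most like the tested members over the 4 libraries, by Euclidean distance between mean-centred log2 values among 10874 other genes, were Vav1, Ptgs1, Fyb, Lmbrd2, Pygl, Pik3cg, Cd300lf and Rhbdl2 (distances 0.0975 to 0.196). Ptgs1 and Fyb are 2 of the 41 genes on the longer tuft list. The nearest, Vav1, a guanine nucleotide exchange factor of blood cells, had 5.73 and 5.73 FPKM in the libraries labelled double knockout, against 2.69 in control 1 and 9.80 in control 2. Ptgs1, the constitutive cyclooxygenase, had 5.63 and 4.85 FPKM in the libraries labelled double knockout, against 2.73 in control 1 and 9.09 in control 2. Both were chosen for their likeness in these libraries, so the shared pattern is a description. Ltc4s was the member farthest from the shared profile, at a distance of 1.73.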

How the data were processed

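Jejunal epithelium was profiled in 4 libraries (75-base single-end reads), 2 labelled double knockout and 2 controls, and titles gave the groups. The submitters' processing notes name TopHat2 2.0.9, Cufflinks 2.1.1, Cuffnorm, Cuffdiff and build mm9, with no roles given. The authors deposited a table of 1 value per gene and library. Its header names no unit, and it was taken as FPKM normalized between libraries. The authors also deposited FPKM with interval bounds for each library alone and, per the file headers, a comparison table with group FPKM, p-values and q-values. Strand is not given in the sources used here.

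Rows sharing a symbol were summed (160 symbols), and 1036 symbols of short RNAs were left out. The 10883 genes whose mean reached 1 FPKM were tested by limma 3.58.1 in R 4.3.3 on log2(FPKM + 1), two-sided, with genotype as the term, an intensity trend and Benjamini-Hochberg adjustment over all of them (adjusted p under 0.05). This step was tested on simulated data. Counts at an unadjusted p under 0.05 and counts called in the authors' deposited table were taken for the lists and not over all genes. With 2 libraries a group, the smallest p of an exact permutation test is 0.333. Start positions were written 1-based. Depth is given only relative to control 1, from the steps of 1 read.

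Members and lists were chosen with earlier results of these data known. By rule, the text names all members, then from each of the 3 gene lists the called genes and the 3 with the largest control difference, from each marker list its sums and genes at 0 (1 list is not reported here), and the 8 genes nearest in profile. Alternatives changed the pseudocount, filter, scaling, FPKM source, trend and replicate block, and left out each library in turn.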

Additional observations from a re-analysis of the deposited data

How the results depend on the processing

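Outside leaving out libraries, 73 of 74 member values in 8 other settings kept their direction and their side of the threshold, and Gfi1b turned to -0.021 (adjusted p = 0.977) under quantile normalization. Ltc4s stayed called in those settings, with adjusted p of 0.0110 to 0.0275. With 1 library left out, the genes called ranged over 157 to 685 (1041 with all 4; 157 without control 2, 166 without control 1, 508 without double knockout 2), the tuft members called over 0 to 1, the members not overlapping over 1 to 9 (9 without either control), and the other tuft cell genes called over 0 to 1. For the 8 members other than Ltc4s, lack of overlap with 1 control left follows from double knockout values that lie between the controls. The share over all genes is not given for it. The members whose control difference exceeded the genotype difference numbered 8 when either library labelled double knockout was left out, and have no value without a control. The log2 fold change then ranged over -0.56 to 1.26 for Pou2f3, -0.41 to 0.53 for Gfi1b, -0.28 to 1.46 for Dclk1, -0.22 to 1.76 for Avil, -0.78 to 1.08 for Trpm5, -1.01 to 1.07 for Rgs13, -1.30 to 0.80 for Alox5, -0.73 to 0.42 for Hpgds and -1.48 to -1.34 for Ltc4s. With FPKM estimated for each library alone, 2 other tuft cell genes were called, Rgs2 and Krt18 (0.99, adjusted p = 0.0415), and the cause was not tested. The count of 1 other tuft gene without double knockout 2 was Gnb3 (adjusted p = 0.0343), not Rgs2. With the replicate block, 786 genes and 1 member were called (Ltc4s, adjusted p = 0.0263). Nothing in the labels pairs the numbers, and the deviations of libraries numbered 1 correlated at -0.00481 over 10883 genes. With 2 libraries a group, only large and even differences can pass.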
